A study of Mus musculus with 30 samples.

Results

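The 3 liver libraries from wild-type mice were compared with the 12 libraries from brain, kidney, muscle and spleen of wild-type mice, out of 30 libraries in the series. The samples were chosen by their labels (genotype and tissue), and no measured value entered the choice. All 15 libraries came from adult C57BL/6 mice of the control genotype, with both copies of Ctcf intact, no transgene or treatment named, and 3 libraries in each of the 5 tissues. Per the series' design they came from 3 mice, and the labels do not tie a replicate number to a mouse, so p-values measure the spread between these libraries. The other 15 libraries, from Ctcf heterozygous mice, entered alternative fits alone. The question was which genes and families set liver apart from the other tissues.

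As background, liver is built mainly of hepatocytes, epithelial cells that secrete most plasma proteins, turn ammonia into urea, make bile acids, store and release glucose and oxidise drugs and steroids. Hepatocytes carry out different parts of this work next to the portal and the central vein. Sinusoidal endothelium, stellate cells, which store vitamin A, Kupffer cells, which are the resident macrophages, and bile duct cells make up most of the rest. In bulk RNA, fewer cells of a type and less RNA per cell cannot be told apart.

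Wild-type depth ran from 49.8 to 103.7 M counts per library. Defining hepatocyte genes were present in all 3 liver libraries and their 10 transcripts summed to 93467 to 135920 FPKM (fragments per kilobase of exon and M counts, scaled between libraries by TMM), against 417 to 686 in brain, 186 to 207 in kidney, 9.99 to 12.8 in spleen and 1.94 to 18.1 in muscle. Alb made up most of the liver sum and Ttr, which is also made in brain, most of the brain sum. Traces of other tissues differed between libraries. A list of 10 brain markers summed to 4.59, 4.81 and 21.6 FPKM in liver replicates 1, 2 and 3, with the synaptic gene Snap25 at 0.0701, 0.0892 and 2.41 FPKM and the glutamate transporter gene Slc17a7 at 0.0168, 0.0147 and 1.26 FPKM, so replicate 3 stood apart. In brain the same 10 markers summed to 2020 to 2213 FPKM. The 10 kidney markers summed to 0.0564 to 0.107 FPKM in liver, and the 10 muscle markers to 1.86 to 2.27 FPKM. In muscle replicate 2 the kidney markers reached 129 FPKM, and in kidney replicate 3 the muscle markers reached 69.4 FPKM. The part of these traces in the calls below was not tested beyond leaving out each library. Y-linked Ddx3y, Uty and Kdm5d had 0 counts in liver, brain, kidney and muscle and at most 8 counts in spleen, whereas Xist had 13924 to 46786 counts in liver. Eif2s3y, also Y-linked, had at most 1 count in liver and at most 3 in spleen.

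A gene was called liver-enriched when it was higher in liver than in each of the other 4 tissues, at least 4-fold and with the largest of the 4 p-values under 0.05 after Benjamini-Hochberg adjustment over 22933 genes, and liver-depleted when the same held downward. In that test 946 genes (4.13%) were enriched and 275 (1.20%) were depleted. With libraries scaled to total counts instead, 676 were enriched and 570 depleted. Of the enriched genes 738 were protein-coding, 97 were long intergenic or antisense RNAs and 66 were pseudogenes. Their median level was 37.4 FPKM in liver and 0.59 FPKM in the highest of the other tissues, and 625 of them reached 10 FPKM in liver. No count in any of the 12 other libraries was found for 25 of them. The median of the depleted genes was 0.0288 FPKM in liver, 0.234 FPKM in the lowest of the other tissues and 3.69 FPKM in the highest. Only 6 of the 275 had at least 10 FPKM in every other tissue. Over all genes tested, 2249 (9.81%) had their 3 liver libraries above all 12 others and 1455 (6.34%) had them below. Against the mean of the other tissues 6545 genes (28.5%) were higher and 6941 (30.3%) lower, and the median change of all genes in that contrast was -0.22 (log2). Without liver replicate 3, 965 genes were enriched and 333 depleted. Of 196 called genes considered by name, 22 enriched ones missed the 4-fold minimum when libraries were scaled to total counts, among them Gstm1 (1.66), Krt18 (1.78), Ppara (1.38), Slc2a2 (1.12), Stab2 (0.94), Cd5l (0.98) and Lrat (1.48, all log2).

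The tissue nearest to liver was kidney for 469 of the enriched genes (49.6%), spleen for 189, brain for 179 and muscle for 109. Among all genes tested, kidney was the nearest tissue for 24.6%. The plot of enriched genes by change and nearest tissue shows 161 of the 277 genes between 2 and 3 log2 units with kidney as nearest, and 45 of the 106 genes at 11 log2 units or more. Another 275 genes were at least 4-fold higher in liver than in brain, muscle and spleen and within 2-fold of kidney, which is a count of fitted changes with no test.

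**Figure D1:**
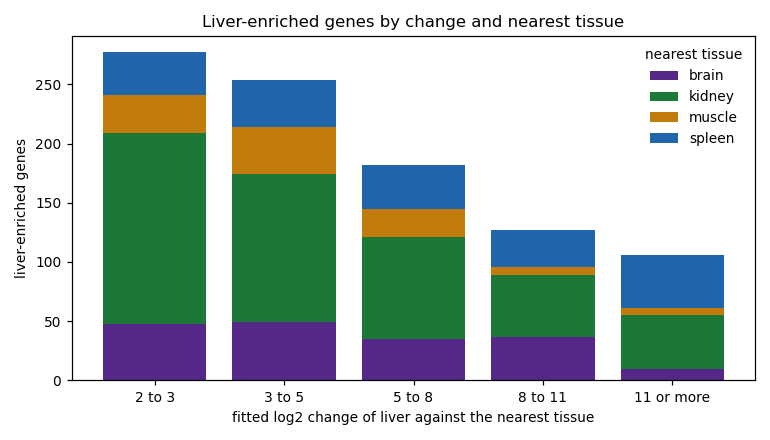
Number of liver-enriched genes (y axis) by the fitted log2 change of liver against the nearest tissue (x axis, 5 classes), with colours for the nearest of the 4 other wild-type tissues. Kidney is the nearest tissue for 161 of 277 genes in the lowest class and for 45 of 106 in the highest, where spleen is nearest for another 45.

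The enriched genes took 50.1% to 53.3% of all counts in the 3 liver libraries. They took 2.70% to 2.89% in kidney, 1.12% to 1.18% in brain, 0.760% to 0.792% in spleen and 0.388% to 0.463% in muscle. The 10 most abundant took 19.1% to 22.5% of the liver counts, and these were genes for secreted proteins and lipid carriers.

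Alb, which encodes the main plasma protein albumin, is at chr5:90460897-90476602 on GRCm38. It stood at 85054, 100871 and 73267 FPKM in liver replicates 1, 2 and 3. In the 12 other libraries Alb ran from 0.473 to 13.4 (median 5.04) FPKM. No library of another tissue came near the liver values, and Alb was 13.31 ± 1.30 (SE, adjusted p = 2.02e-06) log2 units above kidney, the nearest tissue. The promoters of Alb and of Cyp2c70 and Cyp3a41a, which encode cytochrome P450 enzymes at 467, 376 and 434 and 113, 129 and 85.9 FPKM in the 3 liver libraries, are printed as examples. These genes were among the most abundant or the furthest above the other tissues, but other such genes are not printed. The 250 bases before each RefSeq start on GRCm38.p6 follow, 5′ to 3′ on the gene's strand, with matches to the motifs named after them in capitals. The 3 promoters were picked after their letters had been read, so the matches in them do not stand for the enriched genes.
Alb, plus strand, chr5:90460620-90460869: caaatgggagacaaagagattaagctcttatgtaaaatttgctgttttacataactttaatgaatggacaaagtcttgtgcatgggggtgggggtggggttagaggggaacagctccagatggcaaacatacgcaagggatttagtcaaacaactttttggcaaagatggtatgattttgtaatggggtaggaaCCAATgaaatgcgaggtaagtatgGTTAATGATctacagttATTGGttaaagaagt
Cyp2c70, minus strand, chr19:40187287-40187536: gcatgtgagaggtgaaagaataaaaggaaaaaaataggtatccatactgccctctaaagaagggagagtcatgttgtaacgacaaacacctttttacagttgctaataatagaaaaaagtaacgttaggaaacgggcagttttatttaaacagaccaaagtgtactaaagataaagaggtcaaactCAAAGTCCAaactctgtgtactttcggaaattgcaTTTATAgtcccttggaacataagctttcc
Cyp3a41a, minus strand, chr5:145720137-145720386: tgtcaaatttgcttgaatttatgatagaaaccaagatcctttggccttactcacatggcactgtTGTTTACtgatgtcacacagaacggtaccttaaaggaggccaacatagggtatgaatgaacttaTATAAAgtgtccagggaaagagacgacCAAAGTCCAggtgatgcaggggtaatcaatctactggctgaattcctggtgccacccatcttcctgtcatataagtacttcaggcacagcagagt

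Both strands were searched for 7 motifs. Positions are counted from the RefSeq start, which for Alb lies upstream of the gene start given above. CAAAGTCCA, a form of the site of the nuclear receptor HNF4, was found 64 to 56 bases before the Cyp2c70 start and 95 to 87 bases before the Cyp3a41a start, and among 18757 windows of the same length over all genes tested 0.427% held it. GTTAATNAT, the first letters of the HNF1 site, was found 32 to 24 bases before the Alb start (0.576% of windows). TATAAA was found 29 to 24 bases before the Cyp2c70 start, where it reads on the opposite strand, and 122 to 117 bases before that of Cyp3a41a (8.13%). TGTTTAC, a FOXA site, was found 186 to 180 bases before the Cyp3a41a start (2.72%), and CCAAT was found 56 to 52 and, on the opposite strand, 15 to 11 bases before the Alb start (34.3%). TTGCGCAA (0.229%), a C/EBP palindrome, and CACGTG (7.29%), an E-box, were not found in these 3 windows. A window was matched by symbol for 621 of the 946 enriched genes (65.6%) and for 64.8% of all genes tested. Genes without a window are left out, so no statement is made on the promoters of the enriched genes as a set.

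**Figure D2:**
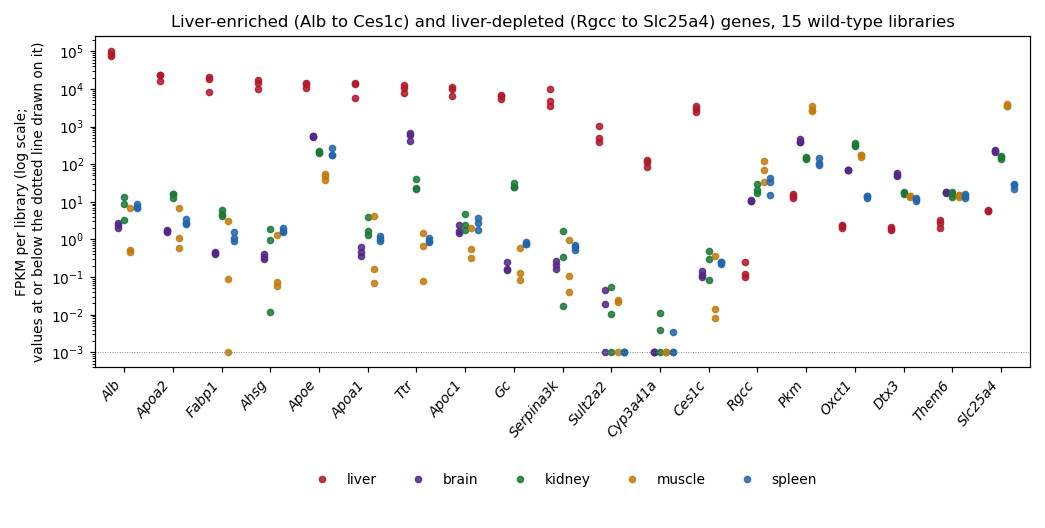
FPKM (log scale) of 13 liver-enriched and 6 liver-depleted genes in each of the 15 wild-type libraries, 3 points per tissue, with values at or below 0.001 drawn on the dotted line. Alb lies between 73267 and 100871 FPKM in liver and between 0.473 and 13.4 FPKM elsewhere, and the 6 genes on the right lie lower in liver than in every other library.

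Of 28 carrier proteins of plasma 26 were enriched, and their enriched members ran from 6.8 to 86397 FPKM in liver (the shares of this and the other lists stand in the plot of calls by list). Ahsg, which encodes fetuin-A, stood at 14667, 16894 and 10186 FPKM in liver and was 12.97 ± 1.55 (SE, adjusted p = 1.73e-05) above spleen. Hpx, the carrier of haem, was at 5129, 3934 and 3013 FPKM, and Gc, the vitamin D carrier, at 6528, 6979 and 5243 FPKM, against 26.7 FPKM for Gc in kidney. Ttr, which carries thyroid hormone and is also made in brain, had means of 10084 ± 2387 FPKM in liver and 560 ± 137 in brain (SD, n = 3).

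All 14 apolipoprotein genes tested were enriched, as were 9 of 10 genes for enzymes and receptors of lipoproteins. Apoa2 stood at 23256, 23390 and 16343 FPKM and Apoa1, the main protein of high-density lipoprotein, at 14327, 13345 and 5617 FPKM, with replicate 3 the lowest for both. Apoe had the smallest gap of the 10 most abundant apart from Ttr, at 4.56 ± 0.28 (SE, adjusted p = 1.56e-08) above brain, where it averaged 545 FPKM. Apob, the structural protein of very low density lipoprotein, was at 388, 359 and 409 FPKM in liver and 7.84 FPKM in kidney. Apoa5, Apoc4 and Apoh were each over 12 log2 units above their nearest tissue.

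Clotting and complement genes followed. Of 32 coagulation and fibrinolysis genes 20 were enriched, 12 of 18 clotting factors among them. F2, which encodes prothrombin, was at 690, 801 and 585 FPKM and 12.04 ± 0.54 (SE, adjusted p = 6.46e-10) above kidney. Plg, the precursor of plasmin, was at 1840, 1746 and 1292 FPKM, and Serpinc1, antithrombin, at 480, 531 and 424 FPKM. Of 37 complement genes 23 were enriched, 10 of 15 of the classical and lectin pathways, 6 of 11 of the alternative and terminal pathways and 7 of 11 regulators. C9, which forms the membrane pore, stood at 162, 101 and 81.3 FPKM, and C8b at 114, 53.1 and 58.6 FPKM. None of these plasma protein genes was depleted, against 1.20% of all genes tested. At that share lists of this size would hold few depleted genes.

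**Figure D3:**
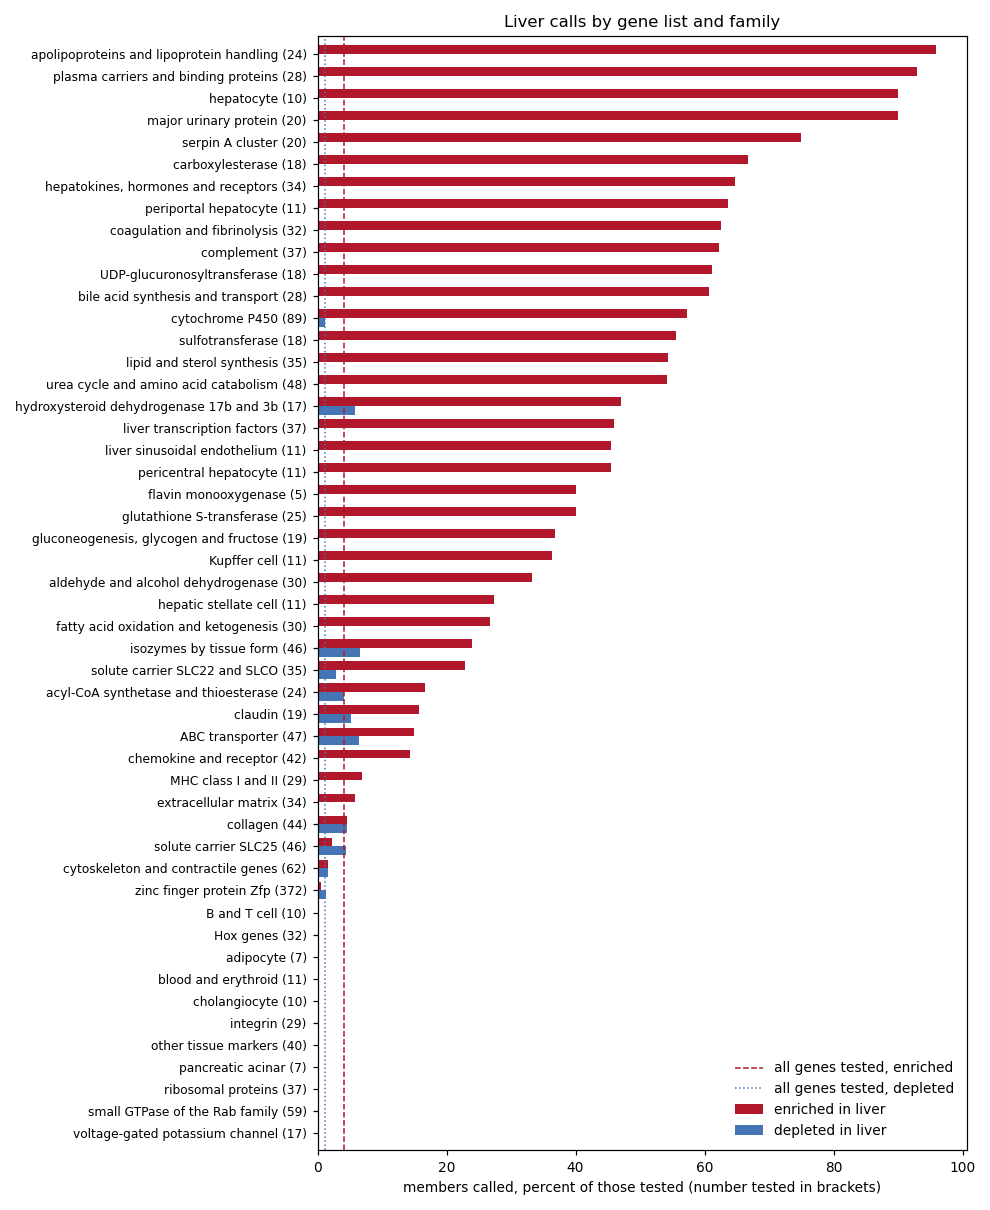
Share of the tested members of each list or family that was enriched (red) or depleted (blue) in liver, in percent, with the number tested in brackets, and dashed and dotted lines at 4.13% and 1.20% for all genes tested. Apolipoproteins, plasma carriers, hepatocyte markers and major urinary proteins lie at 90% or more, and the ribosomal proteins, integrins, Hox and Rab genes at 0.

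Of 48 genes of the urea cycle and amino acid breakdown 26 were enriched. Cps1, the enzyme that fixes ammonia in the first step of the urea cycle, stood at 603, 657 and 1107 FPKM and was 11.85 ± 0.83 (SE, adjusted p = 5.46e-08) above spleen, and Otc, the next enzyme, at 175, 188 and 178 FPKM and 13.04 ± 0.48 (SE, adjusted p = 1.67e-10) above spleen. Arg1, which releases urea, was at 1146, 1221 and 1272 FPKM. Ass1 was not called: it averaged 694 FPKM in kidney beside 1329, 1617 and 2881 FPKM in liver. Agxt, which detoxifies glyoxylate, was 12.45 ± 0.46 (SE, adjusted p = 1.55e-10) above kidney, and Mat1a, which makes S-adenosylmethionine, was at 1666, 1576 and 1683 FPKM.

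Of 28 bile acid genes 17 were enriched, 8 of 14 for synthesis and conjugation and 9 of 14 for transport. Cyp7a1, the rate-limiting enzyme of bile acid synthesis, varied between liver libraries, at 41.9, 16.4 and 63.3 FPKM, and had at most 4 counts in any other library. Slc27a5, which activates bile acids for conjugation, was at 632, 737 and 607 FPKM, and the uptake carrier Slco1b2 at 227, 260 and 232 FPKM. Abcb11, the export pump for bile salts, was at 196, 183 and 231 FPKM and 11.63 ± 0.70 (SE, adjusted p = 1.05e-08) above spleen.

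Glucose production was shared with kidney, the other organ that releases glucose. Of 19 genes of gluconeogenesis, glycogen and fructose 7 were enriched, and kidney was the nearest tissue for 6 of these. Pck1, the committing enzyme of gluconeogenesis, stood at 378, 1122 and 226 FPKM in liver and averaged 816 FPKM in kidney, and its liver libraries overlapped those of kidney. G6pc, which releases free glucose, stood at 67.4, 303 and 190 FPKM in liver with a kidney mean of 159. Fbp1 averaged 997 FPKM in liver and 454 in kidney. Gckr, a regulator of glucose phosphorylation, was at 61.3, 70.7 and 87.4 FPKM and 10.47 ± 0.40 (SE, adjusted p = 1.75e-10) above kidney.

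Of 35 lipid and sterol synthesis genes 19 were enriched, with brain the nearest tissue for 11. Scd1, which desaturates fatty acids, stood at 1180, 2742 and 3750 FPKM, and its nearest tissue, kidney, averaged 189 FPKM. Sc5d of sterol synthesis was 4.71 ± 0.23 (SE, adjusted p = 1.18e-09) above brain, and Elovl5, a fatty acid elongase, was 4.10 ± 0.17 (SE, adjusted p = 3.93e-10) above brain. Of 30 genes of fatty acid oxidation and ketogenesis 8 were enriched. Fabp1, the fatty acid binding protein of liver, was at 18431, 21104 and 8053 FPKM.

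Cytochrome P450 enzymes, which oxidise drugs, steroids and fatty acids, had more enriched members than any other family listed, 51 of 89 tested. Their share, 57.3%, was below those of major urinary proteins (90%), the serpin A cluster (75%), carboxylesterases (66.7%) and UDP-glucuronosyltransferases (61.1%). All 13 Cyp2c genes, 8 of 9 Cyp3a, 6 of 7 Cyp2d and all 4 Cyp2a were enriched, against 2 of 6 Cyp4a, 2 of 8 Cyp4f and none of 8 Cyp2j. Cyp2e1, which oxidises ethanol, was the most abundant at 4839, 5074 and 3065 FPKM and was 7.06 ± 0.49 (SE, adjusted p = 5.05e-08) above kidney. Cyp3a16 stood at 106, 181 and 52 FPKM in liver with at most 2 counts in any other library, and Cyp3a41a at 113, 129 and 85.9 FPKM with at most 3. Cyp27b1, which activates vitamin D in kidney, was the depleted member: it had 0 counts in liver, which leaves room for 3 counts per library, and means of 1.43 FPKM in kidney, 0.0939 in brain, 0.0481 in muscle and 0.0399 in spleen, so that it lay at least 1.41-fold lower in liver than in the lowest of these. In the heterozygous libraries its change against the nearest tissue turned to 0.58 log2 (adjusted p = 0.883). Members of Cyp2c, Cyp3a, Mup and other tandem families are near-identical, and since fragments with several alignments were left out of the counts, their levels are uncertain.

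Conjugating enzymes, which make compounds soluble, were also enriched. Of 18 UDP-glucuronosyltransferase genes 11 were enriched, and Ugt2a3 stood at 190, 183 and 178 FPKM and 10.09 ± 0.24 (SE, adjusted p = 4.51e-12) above kidney. Of 18 sulfotransferase genes 10 were enriched. Sult2a2, which sulfates steroids and bile acids, had the largest fitted change of all enriched genes named by rule: it stood at 485, 1047 and 397 FPKM in liver and ran from 0 to 0.0539 (median 0.0053) FPKM in the 12 other libraries. Sult2a5 and Sult3a2 had no count outside liver and were at least 333-fold and 236-fold higher there, taking 3 counts per library as the limit. Of 25 glutathione S-transferase genes 10 were enriched, with kidney the nearest tissue for 6. Gsta3 was 4.38 ± 0.24 (SE, adjusted p = 5.09e-09) above kidney, and Gstm1 averaged 1683 FPKM in liver and 268 in kidney. Adh1, which oxidises ethanol, stood at 1787, 1905 and 1784 FPKM, and 10 of 30 alcohol and aldehyde dehydrogenase genes were enriched. Among 18 carboxylesterases, which cleave esters and drugs, 12 were enriched and Ces1c was at 2922, 3465 and 2369 FPKM, 13.28 ± 1.07 (SE, adjusted p = 2.50e-07) above kidney.

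Of 20 genes of the serpin A cluster, secreted protease inhibitors, 15 were enriched. Serpina3k stood at 9720, 4804 and 3421 FPKM, replicate 1 the highest, and Serpina1b at 3192, 3484 and 3235 FPKM. Of 20 major urinary protein genes and pseudogenes, whose products carry pheromones, 18 were enriched, with a median of 5 FPKM over those 18. Mup3 was the highest at 4262, 4497 and 2377 FPKM. Mup18 had no count outside liver and was at least 179-fold higher there, and DESeq2 gave it an adjusted p of 0.0544.

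Enriched genes often lay near each other. Of the 946, 483 (51.1%) had another enriched gene within 100 kb, against 15.5% of all genes tested, and of the 275 depleted genes 32 (11.6%) had another depleted gene within 100 kb, against 6.09%. These shares are a description with no test. On chromosome 12, 103614786 to 104086724 held 12 enriched genes of the 15 tested, mostly Serpina1 copies and neighbours. On chromosome 5, 145436309 to 146113287 held 8 Cyp3a genes and pseudogenes, all enriched, and on chromosome 8, 93020214 to 93337308 held 8 of 9 with Ces1a to Ces1g. The median exonic length was 2162 bp for enriched, 3158 bp for depleted and 3045 bp for all genes tested.

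Of 37 transcription factors known for liver 17 were enriched, at 3.44 to 353 FPKM. Foxa2, a pioneer factor, stood at 40.3, 18.9 and 31.6 FPKM and was 8.67 ± 0.50 (SE, adjusted p = 7.05e-09) above brain. Foxa3 stood at 43.7, 54.3 and 29.7 FPKM and Gata4 at 12.8, 6.84 and 11 FPKM. Creb3l3, a membrane-bound factor of the fasting response, was at 149, 226 and 88.4 FPKM, and the xenobiotic receptor Nr1i3 at 17, 27.2 and 15.2 FPKM. Hnf4a was not called, since it stood at 137, 238 and 148 FPKM in liver and averaged 112 FPKM in kidney. Ppara, the fatty acid sensor, was 2.39 ± 0.26 (SE, adjusted p = 6.27e-06) above kidney.

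Of 34 hormones, secreted signals and receptors 22 were enriched. Hamp, which encodes hepcidin, the regulator of iron uptake, stood at 1871, 1350 and 2669 FPKM, and its copy Hamp2 at 481, 1205 and 1253 FPKM. Outside liver Hamp ran from 0.0276 to 0.753 (median 0.149) FPKM. Gdf2, which encodes BMP9, stood at 11, 17.3 and 10.4 FPKM with at most 3 counts in any other library. Asgr1, a subunit of the asialoglycoprotein receptor, was at 630, 622 and 521 FPKM.

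Enzymes with a liver form and a form used elsewhere were compared. Of 46 such genes 11 were enriched and 3 depleted, and all 3 depleted ones, Pkm and Oxct1 among them, were the form used elsewhere. Pklr, the pyruvate kinase of liver, stood at 76.5, 130 and 164 FPKM in liver and 8.77 FPKM in kidney. Pkm, the form of muscle, brain and dividing cells, stood at 12.3, 16.1 and 14.4 FPKM in liver, and ran from 96 to 3448 (median 268) FPKM in the other 12 libraries. All 3 liver libraries lay below all 12 others, and Pkm was lower than in spleen, the nearest tissue, by 3.0 ± 0.22 (SE, adjusted p = 7.44e-08) log2 units. Oxct1, which burns ketone bodies outside liver, stood at 2.03, 2.45 and 2.33 FPKM in liver and averaged 327 FPKM in kidney and 13.8 in spleen. Oxct1 was lower than in spleen by 2.61 ± 0.14 (SE, adjusted p = 2.77e-09) log2 units.

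For the glycogen enzymes and glucose carriers the form used elsewhere was not called. Pygl, liver glycogen phosphorylase, was at 137, 178 and 219 FPKM and 4.46 ± 0.29 (SE, adjusted p = 2.48e-08) above kidney, and Gys2, glycogen synthase of liver, at 61.3, 128 and 54 FPKM. Slc2a2, the glucose carrier of liver, averaged 71.8 FPKM in liver and 16.7 in kidney, a change of 2.10 ± 0.47 (SE, adjusted p = 0.00386) that fell below the 4-fold minimum when liver replicate 2 (1.99) or kidney replicate 1 (1.97) was left out, and in the heterozygous libraries (1.72). For some enzymes the liver form was not called. These were aldolase, fructose bisphosphatase, phosphofructokinase, carnitine palmitoyltransferase 1, long-chain acyl-CoA synthetase and lactate dehydrogenase. Pfkl, the liver form of phosphofructokinase, averaged 13.5 FPKM in liver and 32.3 in brain. Ldha averaged 432 FPKM in liver and 1843 in muscle, and Ldhb 3.41 in liver and 3.2 in spleen.

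**Figure D4:**
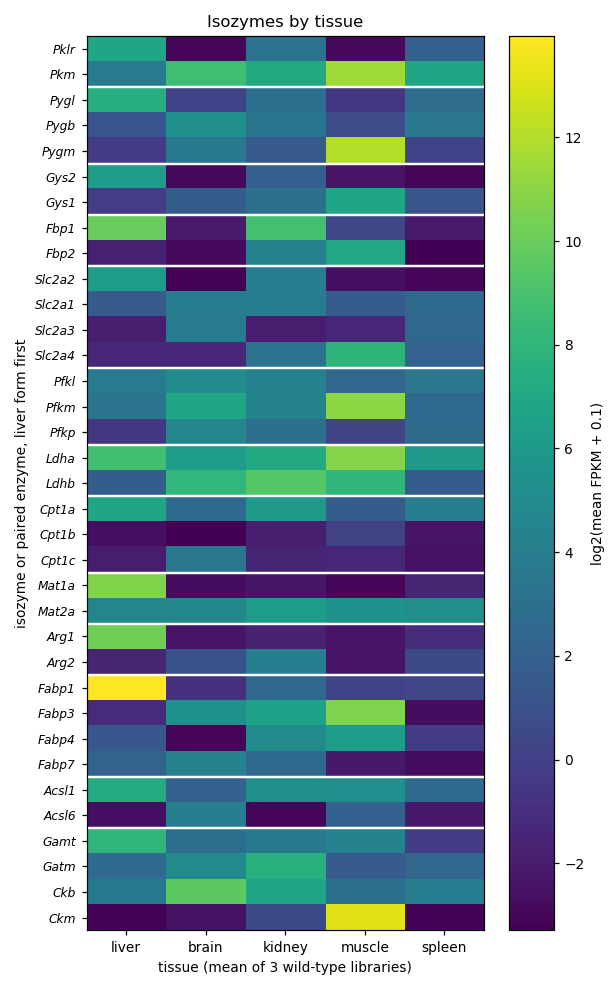
Mean level of 35 of the 46 isozyme genes in 5 wild-type tissues, as log2 of FPKM plus 0.1 (colour), with white lines between enzyme groups and the liver form first in each. The hexokinase, aldolase, glutaminase and ketone body genes are not drawn. Pklr, Gys2, Mat1a, Arg1 and Fabp1 are brightest in the liver column, and Pkm is darkest there.

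The 6 depleted genes with at least 10 FPKM in every other tissue were Rgcc, Pkm, Oxct1, Dtx3, Them6 and Slc25a4. Rgcc, a regulator of the cell cycle, stood at 0.123, 0.258 and 0.103 FPKM in liver and from 10.8 to 118 (median 25.3) FPKM elsewhere, and was lower than in brain by 6.11 ± 0.61 (SE, adjusted p = 2.74e-06) log2 units. Slc25a4, the ADP/ATP carrier of heart and muscle mitochondria, stood at 5.78, 6.04 and 5.61 FPKM in liver, against means of 3618 FPKM in muscle and 26.5 in spleen. Dtx3, a ubiquitin ligase of the Deltex family, stood at 1.91, 1.78 and 2.17 FPKM in liver and from 10.7 to 57.3 (median 15.3) FPKM elsewhere. Them6 was at 3.3, 2.01 and 2.75 FPKM against 12.7 to 18.3 (median 15.9) FPKM. The liver libraries lay below all others for each of the 6. Liver held 3 counts or fewer in each library for 105 of the depleted genes and 0 counts for 33, so that counting error is large for many of them.

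Depleted members also stood within families with enriched ones. Among 47 ABC transporters 7 were enriched and 3 depleted. Abcc6 and the sterol transporters Abcg5 and Abcg8 were enriched, Abcg5 at 51.4, 64.5 and 40.8 FPKM and Abcg8 at 35.8, 50.2 and 31.5 FPKM, whereas Abcc5, an exporter of nucleotides, was lower than in kidney by 2.47 ± 0.21 (SE, adjusted p = 5.92e-07) log2 units and Abcc1, an exporter of glutathione conjugates, lower than in brain by 2.10 ± 0.18 (SE, adjusted p = 5.50e-07). Abcc1 did not reach 4-fold (-1.95) when each tissue was rescaled to a median change of 0, a setting added after the data were seen. Abca13, the other depleted one, had at most 1 count per liver library and a brain mean of 0.00847 FPKM, and its adjusted p of 0.0426 went above 0.05 in 12 of the 15 fits without 1 library. It was 0.0657 with the replicate number as a block and 0.887 in the heterozygous libraries. Of 24 acyl-CoA synthetases and thioesterases 4 were enriched, and Acss1, the acetyl-CoA synthetase of mitochondria, was lower than in brain by 5.07 ± 0.25 (SE, adjusted p = 1.27e-09) log2 units, at 0.148, 0.185 and 0.207 FPKM in liver. Of 35 SLC22 and SLCO carriers 8 were enriched, and Slc22a12, the urate carrier of kidney, had 0 counts in liver and a kidney mean of 277 FPKM, at least 5.30-fold lower in liver than in the lowest tissue. In the heterozygous libraries it missed the threshold (-5.74 log2, adjusted p = 0.21). Of 46 SLC25 carriers 1 was enriched, Slc25a47, and 2 were depleted, Slc25a4 and Slc25a36. Among 17 hydroxysteroid dehydrogenases 8 were enriched and Hsd17b14 was depleted, with at most 1 count per liver library. Hsd17b14 was not called in the heterozygous libraries (-0.32 log2, adjusted p = 0.799). Of 19 claudins, proteins of tight junctions, 3 were enriched and Cldn10 was depleted, a call that without muscle replicate 2, the library with the kidney traces, missed 4-fold at -1.56 and in the heterozygous libraries was at -0.02 log2.

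Other broad families are set beside the shares of all genes tested, 4.13% enriched and 1.20% depleted. Of 372 Zfp zinc finger genes 2 were enriched and 5 depleted, and of 62 cytoskeletal genes Krt18, a keratin of simple epithelia, was enriched and Tubb2b, a neuronal tubulin, depleted. The Tubb2b call missed 4-fold (-1.98) without muscle replicate 2. Of 44 collagens 2 were enriched (4.55%) and 2 depleted (4.55%), and Col18a1, the source of endostatin, was the highest at 220, 251 and 195 FPKM. None of 37 ribosomal protein genes was called, and Rplp0 averaged 426 FPKM in liver between 103 in brain and 1027 in spleen. None of 40 markers of the other 4 tissues, 32 Hox genes, 29 integrins, 59 Rab genes or 17 voltage-gated potassium channels was called by edgeR either. At the shares of all genes few or no calls would fall in lists of these sizes, so the absence of calls does not set them apart. At an unadjusted p under 0.05 with the same 4-fold minimum 1 of the tissue markers was lower and 0 members of the other 5 lists were called, ribosomal proteins included. DESeq2 called 3 of the tissue markers and 1 Rab gene, and limma-voom 1 Rab gene. Of 42 chemokines and receptors 6 were enriched (14.3%, against 4.13% of all genes tested), with spleen the nearest tissue for 4. With libraries scaled to total counts Ccl24 (1.15), Cxcl1 (1.61), Cxcl9 (1.35) and Cxcl13 (1.88, all log2) missed 4-fold, whereas Ccl9 (2.04) did not. Ccl24 was also not called in the heterozygous libraries (0.60 log2, adjusted p = 0.456). Of 29 MHC genes 2 were enriched (6.9%), near the share over all genes. These were H2-Q10, a secreted class I protein, at 809, 828 and 755 FPKM, and H2-Q1.

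Markers of single cell types were set beside these calls. Of the 10 hepatocyte markers 9 were enriched, all but Hnf4a. Of 11 periportal markers 7 were enriched, among them Sds, Hal and Cyp2f2, and of 11 pericentral markers 5, among them Cyp1a2 and Cyp2e1. Glul, the glutamine synthetase of the cells around the central vein, was not called, with means of 336 FPKM in liver and 411 in brain. Kupffer cell markers were enriched for 4 of 11. Clec4f, the lectin that defines Kupffer cells, stood at 99.3, 126 and 76.4 FPKM and ran from 0 to 0.0464 (median 0.0164) FPKM elsewhere, while Adgre1, shared by macrophages, averaged 12.4 FPKM in liver and 15.8 in spleen. Cd5l missed 4-fold without liver replicate 2 (1.89) and in the heterozygous libraries (1.46). Of 11 sinusoidal endothelial markers 5 were enriched: Clec4g and Oit3 were each over 7 log2 units above the nearest tissue, and Stab2 was 2.08 ± 0.22 (SE, adjusted p = 4.40e-06) above spleen, or 1.96 without spleen replicate 3 and 1.85 in the heterozygous libraries. Stellate cell markers were enriched for 3 of 11, Lrat, which stores vitamin A as esters, Colec10 and Hand2, at 3.41 to 10.6 FPKM in liver. All 11 together summed to 269 to 302 FPKM in liver and to more in muscle, 1548 to 1747 FPKM, so the list as a whole was not particular to liver.

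Markers of other cells were low in liver or shared with another tissue. None was called by edgeR, also at an unadjusted p under 0.05 (0 genes), and DESeq2 called 1 adipocyte gene and limma-voom 0. In lists this short few or no calls would fall at the shares of all genes tested. The 10 bile duct markers summed to 28.5 to 47.6 FPKM in liver and 914 to 959 in kidney, and Krt19 was at 1.14, 0.767 and 1.27 FPKM in liver. The 11 blood and erythroid genes summed to 1331 to 1989 FPKM in liver, 1745 to 2383 in kidney and 13507 to 79806 in spleen. The 10 B and T cell genes summed to 21.6 to 29.1 FPKM in liver and 2499 to 3287 in spleen. The 7 adipocyte genes summed to 4.02 to 5.81 FPKM in liver, with Lep at 0, and 100 to 217 in muscle. In kidney replicates 1, 2 and 3 they summed to 315, 162 and 20.4 FPKM. The 7 acinar genes of pancreas summed to 18 to 22.1 FPKM in liver, nearly all of it Cela1, 71.5 to 111 in kidney and 14.2 to 149 in spleen.

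The 3 liver libraries differed among themselves in some of the enriched genes. Among 625 enriched genes with at least 10 FPKM the median SD of log2(FPKM + 0.1) over the 3 libraries was 0.27, and 0.67 at the 90th percentile. Rgs16, a brake on G protein signalling, had the largest SD, at 2.23, 158 and 65.7 FPKM, and replicate 1 overlapped the brain libraries. Limma-voom gave Rgs16 an adjusted p of 0.209, and in the heterozygous libraries it missed 4-fold (1.77). Fgf21, a hormone of fasting, stood at 6.53, 23 and 1.77 FPKM, Tsku at 7.16, 38.6 and 4.37 FPKM and Depp1 at 13.7, 113 and 57.1 FPKM, each with replicate 2 the highest. Tsku missed 4-fold without replicate 2 (1.58). Of 4 clock genes and 3 fasting genes chosen after the values were seen, replicate 2 was the highest for Dbp (1.26, 26.5 and 3.12 FPKM), Per1 (1.56, 8.31 and 1.48), Nr1d1 (14.4, 75.2 and 25.2), Pck1 and G6pc, and the lowest for Arntl (3.85, 1.38 and 3.08) and Ppargc1a (1.84, 1.29 and 2.55). The time of collection and feeding are not given in the labels, and their part was not tested. Mup15 and Mup17 were highest in replicate 1, Mup17 at 60.7, 28.2 and 4.89 FPKM, and Serpina1e was at 1172, 141 and 431 FPKM.

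**Figure D5:**
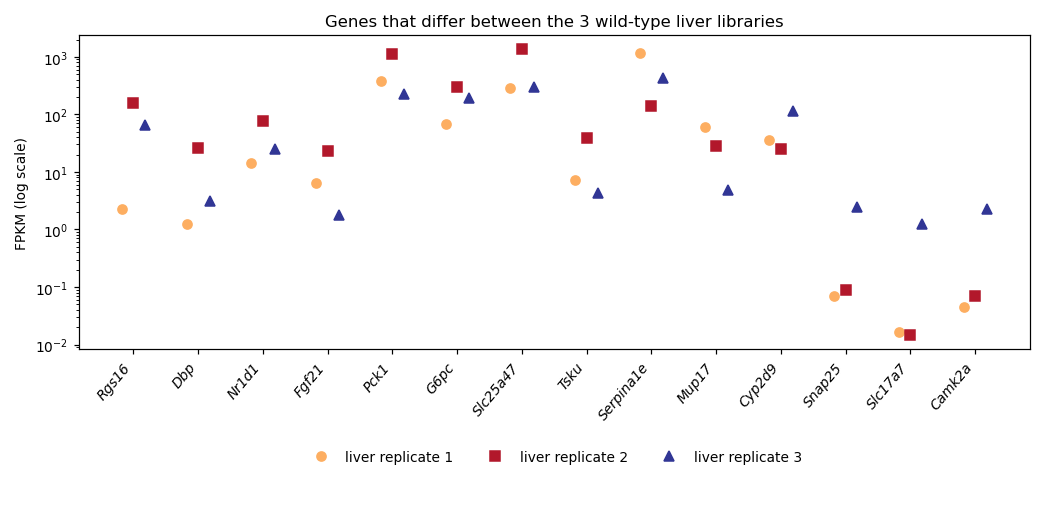
FPKM (log scale) in the 3 wild-type liver libraries, 1 symbol per library, for 14 genes chosen for their spread or, for the last 3, as brain markers. Replicate 2 is the highest for the first 8 genes, and replicate 3 stands above the others for Snap25, Slc17a7 and Camk2a.

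Genes known to differ between female and male mouse liver, chosen after their values were seen, were described by level. Of 11 female-predominant genes 10 were enriched. Cyp2b9 stood at 395, 428 and 495 FPKM, Sult3a1 at 182, 66.3 and 220 FPKM and A1bg at 530, 645 and 117 FPKM, with replicate 3 the lowest for A1bg. Of 11 male-predominant genes 6 were enriched. The median change against the mean of the other tissues was 14.54 log2 for the female-predominant list and 7.14 for the male-predominant list. Some members of the male-predominant list, called or not, were low in liver. Cyp4a12a stood at 0.0561, 0.0109 and 0.0784 FPKM, Elovl3 at 6.39, 3.67 and 2.18 FPKM and Hsd3b5 at 3.35, 1.33 and 2.08 FPKM. Moxd1 had 0 counts in liver. Cyp2d9 was highest in replicate 3, at 35.7, 24.6 and 115 FPKM, and missed 4-fold without that library (1.78). The labels do not give the sex of the mice, and the counts of Xist and the Y-linked genes are given above.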

How the data were processed

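RNA-seq counts of 15 wild-type libraries were used, 5 tissues with 3 libraries each, grouped by their titles. The files hold unnormalized counts of fragments, which the authors deposited for each gene and made with featureCounts 1.5.0-p3 on Ensembl 86 (GRCm38) exons without regard to strand, leaving out fragments with several alignments or genes, per the file headers. The deposited exonic length per gene, another column per the file headers, was used for FPKM. The submitters' processing notes also name STAR, FastQC and DESeq2, and their versions are not given in the sources used here. TRIzol RNA and a standard Illumina library are stated in the labels. Overlapping, antisense and near-identical genes can lose or share fragments. Total counts were 49.8 to 103.7 M, a count of 0 leaves room for 3 counts per library, and this covers counting error only.

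In R 4.3.3, edgeR 4.0.16 fitted tissue means to the 22933 of 48709 genes that passed filterByExpr (minimum count 10), with TMM scaling and quasi-likelihood F-tests, and the script was tested on simulated data. Liver was tested against each other tissue; the largest of the 4 p-values was Benjamini-Hochberg adjusted over all genes, and a call needed an adjusted p under 0.05, 4 changes of the same sign and at least 4-fold. Fitted changes are log2 against the nearest tissue with their standard error (SE). Levels are TMM-scaled FPKM. Limma 3.58.1 and DESeq2 1.42.0 served as alternatives, along with other scalings, filters, fold minimums, left-out libraries and tissues, and the heterozygous libraries. Replicates differed by more than sampling noise. No label ties a replicate number to a mouse, and the reported fit has no replicate block.

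The genes, lists and tests were chosen with earlier results of these data known. Named genes were the 12 enriched with the largest change and the 10 most abundant, the depleted ones with at least 10 FPKM elsewhere, up to 5 called members of each list and any called the other way, the 6 enriched with the largest spread between liver libraries, every isozyme, and cell type markers; others are stated to have been chosen after their values were seen. Ass1, Pck1, G6pc, Fbp1, Hnf4a, Glul and Rplp0 are list members named by level. A few list members are counted in their lists but not reported here by name. RefSeq promoters were matched by symbol. Protein sequences were not used here.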

Additional observations from a re-analysis of the deposited data

How the results depend on the processing

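Of 32 alternatives, those that moved the counts by over 1.5 times were these. The enriched count of 946 was 1474 at a 2-fold minimum and 1543 without kidney. The depleted count of 275 was 632 at a 2-fold minimum, 121 at an 8-fold minimum, 570 with total counts, 461 without kidney, 618 without muscle and 930 without spleen. Against the mean of the other tissues, total counts gave 3800 higher and 11775 lower genes and moved the median change of all genes from -0.22 to -0.99. Enriched genes were 77.5% of the calls, 54.3% with total counts, 62.7% without muscle and 55.8% without spleen. Leaving out each of the 15 libraries gave 948 to 988 enriched and 231 to 333 depleted genes, with 911 to 941 and 207 to 264 of them shared with the reported calls, and for the mean contrast 6131 to 6716 higher and 6122 to 7031 lower. The replicate block gave 942 enriched and 273 depleted genes; deviations of same-numbered libraries correlated at -0.144 to 0.232, with 7 of 30 pairs over 0.1, and 10 of 15 libraries correlated best with their own number, a hint from the data and not the design. Of the named genes the block ended the call of Abca13 (adjusted p = 0.0657). The heterozygous libraries gave 1010 enriched (893 shared) and 347 depleted (179 shared). They reversed Cyp27b1, to 0.58 log2 from the nearest tissue, and 11 named genes lost their call in them, among them Slc2a2 (1.72), Stab2 (1.85), Rgs16 (1.77), Cldn10 (-0.02), Slc22a12 (-5.74) and Hsd17b14 (-0.32). Rescaling each tissue to a median change of 0, added after the data were seen, gave 982 and 259. Of 196 named called genes 162 kept their call in every alternative that tested them, fold minimums aside, and of 3200 counts per list 3047 stayed within 1.5 times. The cause of these shifts was not tested. For genes with few counts in liver, depth limits the depleted calls.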
